A study of Mus musculus with 3 samples.

Results

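ERα sites were examined at 9 genes that drive or restrain the cell cycle: the D-type cyclins Ccnd1, Ccnd2 and Ccnd3, the E-type cyclin Ccne1, the MYC factors Myc and Mycn, the Cip/Kip inhibitors Cdkn1a and Cdkn1b, and the factor E2f1. A peak belonged to a gene when its midpoint lay within 100 kb of any annotated transcription start site (TSS) of that gene. This rule took 16 of the 9607 peaks of replicate 1 and 11 of the 6819 peaks of replicate 2. Overlapping peaks of the lists defined 10 shared regions at these genes, of 6250 in the genome. ERα ChIP-seq was done on mammary glands of wild-type (WT) BALB/c females, given as BALB/cJ in the study's methods. Their ovaries were removed at the age of 6 weeks, and after a rest of 10 days they received 17β-estradiol (100 ng) for 2 h. The inguinal glands of several mice were pooled for each of the 2 replicates, the antibody was sc-542 of Santa Cruz, and both replicates were compared with 1 input library from glands treated in the same way. No list from vehicle-treated glands was used here, so a change of binding with estradiol cannot be read from these sites. The tissue was whole gland, and the cell types that bound ERα cannot be told apart. Each peak has a score, read here as its -log10 p-value against the input multiplied by 10, which ranks peaks within a list and depends on depth. The lists hold no reads, and the read numbers that the study reports were not used here.

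Passage from G1 to S phase is driven by D-type cyclins with their kinases CDK4 and CDK6, and then by cyclin E with CDK2, which phosphorylate the retinoblastoma family and release E2F factors. Cip/Kip proteins bind and restrain cyclin and CDK complexes, and MYC factors promote growth and division. In the mammary gland, estrogen promotes proliferation of the ductal epithelium, and ERα binds DNA at the estrogen response element (ERE) or through other factors such as AP1.

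The sequences shown first are the best ERE-like stretches of the regions that hold the closest matches, and of the region inside Cdkn1a. The ERE was searched as GGTCA, 3 bases of any kind, then TGACC, in a 400 bp window around the midpoint of each region. In each sequence, read from the plus strand of NCBIM37 (mm9), the capitals mark the 13 bases of the ERE-like stretch.
Cdkn1a far upstream region, chr17:29155471-29155531: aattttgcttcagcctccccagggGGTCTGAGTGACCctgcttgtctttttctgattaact
Cdkn1a highest-scoring region, chr17:29289378-29289438: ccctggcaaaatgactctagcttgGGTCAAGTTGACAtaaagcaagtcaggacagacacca
Ccnd3 upstream region, chr17:47592528-47592588: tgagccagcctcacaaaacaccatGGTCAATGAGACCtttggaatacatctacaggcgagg
Cdkn1a intronic region, chr17:29231598-29231658: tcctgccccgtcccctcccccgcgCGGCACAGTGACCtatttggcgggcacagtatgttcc
Substitutions are given as consensus base, position counted from 1 at the 5′ end of the capitals, and base found. The far upstream region of Cdkn1a had A5T, the highest-scoring region of Cdkn1a had C13A and the upstream region of Ccnd3 had T9A. Each of these differed from the consensus at 1 position. The region in the intron of Cdkn1a had G1C and T3G.

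The genes without a shared region within 100 kb are represented by E2f1, whose nearest shared region held an ERE with no mismatch, and by Cdkn1b, whose nearest shared region lay closest to the 100 kb limit. The capitals again mark the ERE-like stretch.
E2f1 nearest shared region, chr2:154542521-154542581: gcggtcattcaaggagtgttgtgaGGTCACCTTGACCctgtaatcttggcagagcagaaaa
Cdkn1b nearest shared region, chr6:134767441-134767501: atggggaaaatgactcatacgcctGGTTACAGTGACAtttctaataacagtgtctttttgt
The stretch nearest to Cdkn1b carried C4T and C13A. In the nearest shared regions of Ccnd1, Ccnd2 and Ccne1, not shown, the best stretches had 3, 2 and 3 mismatches. The E2f1 region was thus chosen for its match and is not typical of these genes.

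The consensus of another factor was found in regions of Myc, Mycn, Ccnd3 and Cdkn1a. The matches shown are those of SF1, FOXA1 and AP1, with the match in capitals, on the plus strand of NCBIM37.
Myc region with an SF1 match, chr15:61872756-61872811: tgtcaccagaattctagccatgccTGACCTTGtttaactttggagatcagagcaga
Mycn region with a FOXA1 match, chr12:12911468-12911522: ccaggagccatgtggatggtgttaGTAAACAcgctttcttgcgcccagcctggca
Ccnd3 region with an AP1 match, chr17:47588315-47588369: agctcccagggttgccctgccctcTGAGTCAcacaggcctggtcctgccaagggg
Cdkn1a intronic region with an AP1 match, chr17:29231458-29231512: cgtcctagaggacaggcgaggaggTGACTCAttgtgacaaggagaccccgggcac
The motifs searched were AP1 (TGACTCA or TGAGTCA), SF1 (CAAGGTCA), PAX2 (GTCACG), FOXA1 (TATTTAC or TGTTTAC), SP1 (GGGCGG) and CRE (TGACGTCA), each on both strands. The SF1 consensus contains an ERE half-site, so these motifs can overlap. None of the matches in the regions of these genes overlapped the best ERE-like stretch.

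Of the 9 genes, 4 had at least 1 shared region: Ccnd3, Myc, Mycn and Cdkn1a. By the same rule, 38.1% of the 22380 annotated protein-coding genes had at least 1 shared region. Cdkn1a held 6 of the 10 shared regions, Ccnd3 held 2, and Myc and Mycn held 1 each. At least 2 shared regions were found at 2 of the 9 genes, against 17.8% of protein-coding genes, and at least 6 at 1 gene, against 1.37%. These counts depended on the window and the score: Cdkn1a had 3 shared regions within 50 kb, 1 within 20 kb, and 3 within 100 kb with scores of at least 200 in both lists. Ccnd3 had 1, 0 and 1 under the same settings, for which the shares of all genes were not computed. A peak of replicate 1 was present at 6 of the 9 genes (49.6% of protein-coding genes) and a peak of replicate 2 at 4 (40.2%). The genes were chosen with earlier results of these data known, so these shares are set side by side without a test.

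**Figure D1:**
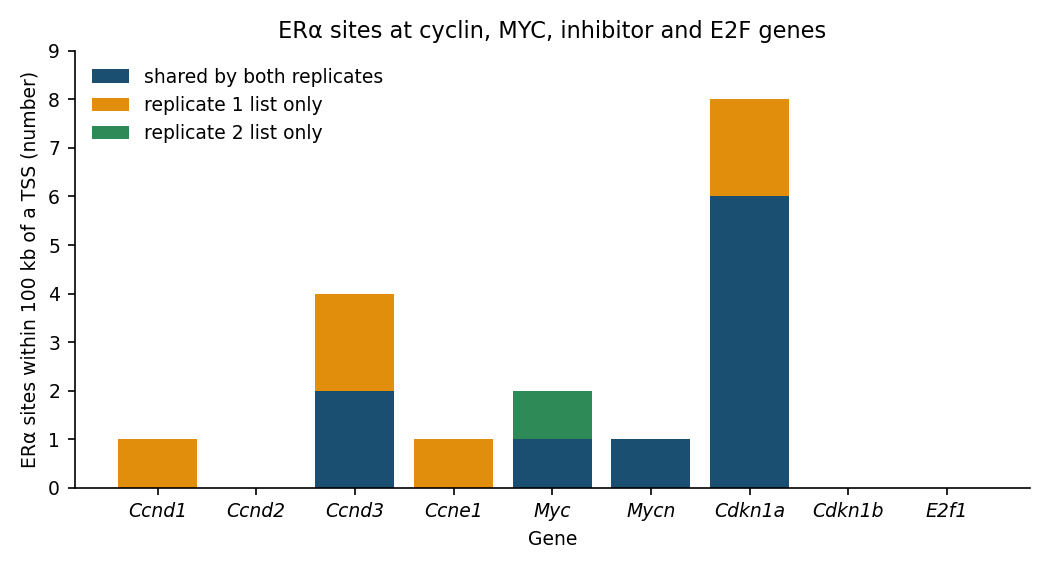
Number of ERα sites (vertical axis) with midpoint within 100 kb of a TSS of each gene (horizontal axis), divided into regions shared by both replicates and peaks of 1 list. Cdkn1a has 6 shared regions and 2 peaks of replicate 1 alone, and Ccnd2, Cdkn1b and E2f1 have no site.

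Most of the regions were nearer to the TSS of another gene. For 1 of the 10 shared regions, inside Cdkn1a, no other gene had a nearer TSS than the listed gene. Thus 1 of the 9 genes was the nearest gene to a shared region, against 11.8% of protein-coding genes. The number of such regions was 2 with TSSs of protein-coding transcripts alone and 0 with scores of at least 200 in both lists, and either list alone had 2 such peaks. The annotation placed 7 midpoints in introns, 2 between genes and 1 in an untranslated exon. Of the 6243 shared regions on annotated chromosomes, 45.4% were in introns, 50.3% between genes and 2.31% in untranslated exons. Upstream of the nearest TSS of the listed gene lay 3 regions, and downstream of it lay 7. Over all pairs of a protein-coding gene and a shared region within 100 kb, 50.3% of the regions were downstream. With 10 regions, no difference from these shares is claimed.

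**Figure D2:**
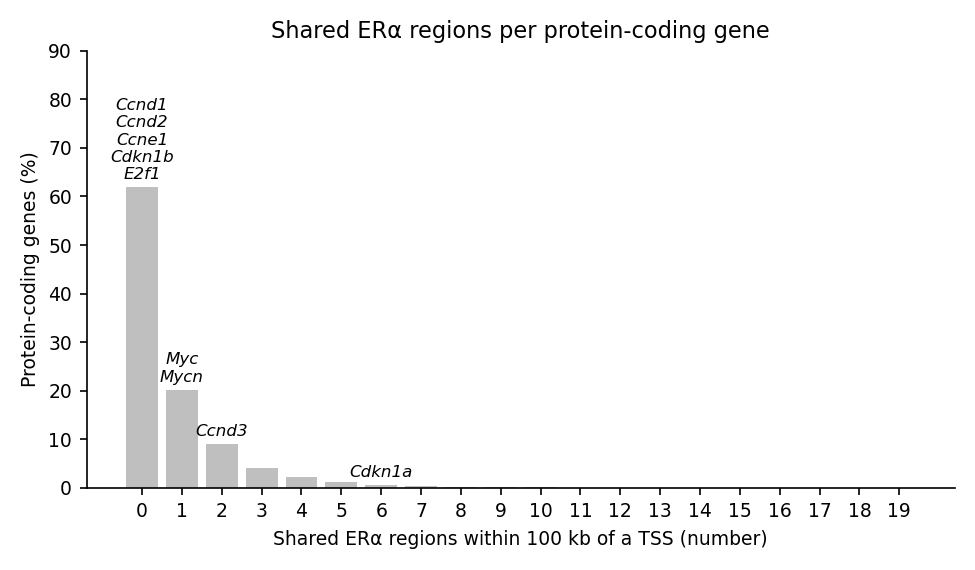
Percentage of the 22380 protein-coding genes (vertical axis) with each number of shared ERα regions within 100 kb of a TSS (horizontal axis), with the 9 genes written above their number. Genes with 0 regions make up 61.9%, and Cdkn1a stands at 6.

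The D-type cyclins differed in their sites. Ccnd3 (ENSMUSG00000034165, chr17:47642000-47736632, plus strand), which encodes cyclin D3, had 2 shared regions, and Ccnd1 and Ccnd2 had none. Both regions of Ccnd3 lay upstream of its first TSS in introns of AI661453, with midpoints 4271 bp apart. The higher-scoring region, chr17:47588015-47588604, lay at -53691 bp and scored 553 in replicate 1 and 289.9 in replicate 2, and it held the AP1 match shown above and an SP1 match. The other, chr17:47592333-47592828, had scores of 215 and 118 at -49420 bp and held the ERE with T9A. Both were nearest to 1700001C19Rik. The ratios of the replicate 1 to the replicate 2 score, 1.91 and 1.83, differed little between these regions. Ccnd3 also had 2 peaks in the replicate 1 list alone. One, chr17:47577958-47578457, had a score of 111 at -63793 bp and an ERE-like stretch with 1 mismatch, and it lay 9535 bases from the closest peak of replicate 2. The other, chr17:47747977-47748759, had a score of 96.2 and lay 73 bp from the TSS of Bysl, in an untranslated exon of that gene. It was 17952 bp downstream of the second Ccnd3 TSS and 106368 bp from the first, so it counted through the second alone.

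Ccnd1 (ENSMUSG00000070348, chr7:152115836-152125774, minus strand), which encodes cyclin D1, had a single peak within 100 kb, in replicate 1. This peak, chr7:152100614-152101705, had a score of 88.0, higher than 8.68% of the replicate 1 list. It lay 22943 bp downstream of a Ccnd1 TSS, but 74 bp from the TSS of Oraov1 and in a coding exon of that gene. Its 400 bp window held 4 SP1 matches and a best ERE-like stretch with 2 mismatches. The nearest shared region, chr7:152298948-152299374, was 173 kb away with scores of 184 and 85.4. Ccnd1 had 3 shared regions between 100 and 200 kb, this one included, and 9 between 200 and 400 kb, all outside the rule.

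Ccnd2 (ENSMUSG00000000184, chr6:127075797-127101066, minus strand), which encodes cyclin D2, had no peak in either list within 100 kb. It was the gene farthest from a site. Its nearest peak in replicate 1, chr6:126433311-126433796, was at 668 kb with a score of 135, and its nearest in replicate 2, chr6:126452698-126453240, was at 648 kb with a score of 80.3. These peaks are not the same site, and the nearest shared region, chr6:126390779-126391222, was at 710.1 kb with scores of 114 and 102.5. Of the 22350 protein-coding genes on chromosomes with a shared region, 15.1% were farther than this from their nearest shared region. The median distance was 159.6 kb. For the other genes without a shared region within 100 kb, more genes were farther: 47.8% for Ccnd1, 52.2% for E2f1, 59.4% for Ccne1 and 61.1% for Cdkn1b.

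Ccne1 (ENSMUSG00000002068, chr7:38883003-38892553, minus strand), which encodes cyclin E1, had no shared region. Replicate 1 had a peak at -36728 bp, chr7:38929140-38929423, with a score of 108, in intergenic sequence. No peak of replicate 2 was closer to it than 72952 bases. The nearest shared region of Ccne1, chr7:39002413-39003016, lay 110.2 kb upstream with scores of 135 and 87.4, just outside the limit and nearest to Plekhf1.

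The MYC factors had 1 shared region each, in both cases downstream of the gene and in an intron of a long noncoding RNA. For Myc (ENSMUSG00000022346, chr15:61816946-61821929, plus strand), the region chr15:61872547-61873136 scored 235 in replicate 1 and 169 in replicate 2. Its midpoint lay 53864 bp from the nearest Myc TSS and 3225 bp from the TSS of Pvt1, in an intron of that gene. No other protein-coding gene had a TSS within 100 kb of this midpoint, so Myc was nearest with TSSs of protein-coding transcripts alone. The best ERE-like stretch had 3 mismatches, and the window held the SF1 match shown above. Replicate 2 alone had a peak at 4773 bp, chr15:61823424-61824077, with a score of 88.1, and Myc was its nearest gene. The closest replicate 1 peak was 48469 bases away. This was the only peak of the 9 genes found in the replicate 2 list alone.

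For Mycn (ENSMUSG00000037169, chr12:12942902-12948720, minus strand), the region chr12:12911270-12911803 scored 460.1 in replicate 1 and 292 in replicate 2, above the Myc region in both lists. It was centred 35886 bp downstream from a Mycn TSS and 2010 bp from the TSS of 4930519A11Rik, in an intron of that noncoding gene. The best ERE-like stretch had 3 mismatches. A FOXA1 match lay at -41 bp from the midpoint, and 2 SP1 matches lay to its other side. Mycn had no peak in 1 list alone.

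Cdkn1a (ENSMUSG00000023067, chr17:29227924-29237667, plus strand) encodes p21, an inhibitor of cyclin-dependent kinases and a target of p53. It had 8 peaks in replicate 1 and 6 in replicate 2, and all 6 peaks of replicate 2 overlapped a replicate 1 peak. The 6 shared regions spanned 138425 bp between the midpoints of the outermost ones. The region with the highest scores, chr17:29289063-29289748, had 756 in replicate 1 (rank 835 of 9607) and 713 in replicate 2 (rank 599 of 6819), and its lower score exceeded that of 90.5% of all shared regions. It lay in intergenic sequence 54253 bp downstream of the nearest Cdkn1a TSS, with the pseudogene Rpl35a-ps3 as its nearest gene at 15156 bp. The centre of its ERE-like stretch with C13A was 3 bp from the midpoint of the region.

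The region nearest to a Cdkn1a TSS, chr17:29231302-29231957, lay in an intron of Cdkn1a, 912 bp downstream of the second annotated TSS and 3705 bp downstream of the first. Its scores were 373 in replicate 1 and 138 in replicate 2. The ratio of these scores, 2.71, was the highest of the 10 regions. The window held an AP1 match at -144 bp from the midpoint, 2 SP1 matches and the ERE-like stretch with G1C and T3G. A further replicate 1 peak, chr17:29231984-29232798, with a score of 106, began 5 bases after the replicate 1 peak of this region and 26 bases after the replicate 2 peak.

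The far upstream region of Cdkn1a, chr17:29155247-29155958, had scores of 281 and 156 at -72322 bp. It was intergenic, its nearest TSS was that of Gm16195, and its ERE-like stretch with A5T lay at -101 bp from the midpoint. Among the regions within 100 kb it was the farthest from a TSS of its gene. The remaining 3 regions lay between 24703 and 58875 bp downstream. Their scores were 519.7 and 416 in an intron of Gm16194, 448 and 327 in an intron of Rab44 at 154 bp from the TSS of that gene, and 96.3 and 81.7 in an untranslated exon of Cpne5. The last of these had the lowest scores of the 10 regions, and 1.70% of all shared regions had a lower value. It held a PAX2 match. The regions at Gm16194 and Rab44 held no ERE with at most 1 mismatch and no other consensus searched. Another peak of replicate 1 alone, chr17:29257658-29258030, had a score of 80.4, near the lowest score in that list, 80.02. Its best ERE-like stretch had 1 mismatch, A11C.

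**Figure D3:**
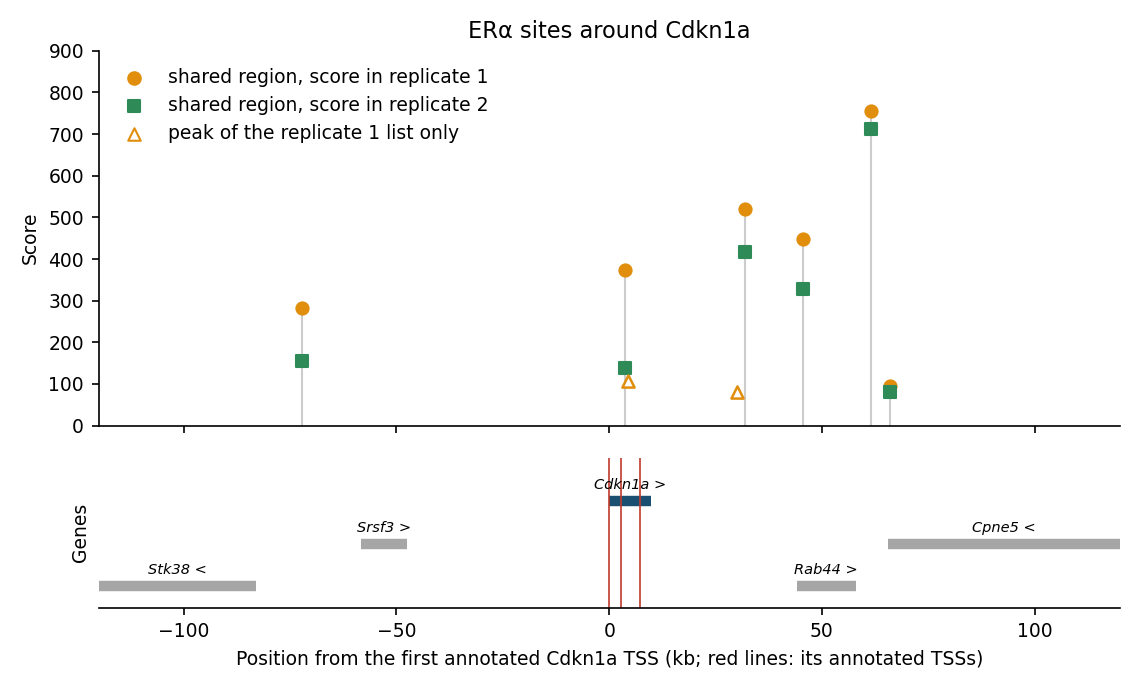
Scores of the ERα sites around Cdkn1a (vertical axis) by the position of their midpoint from the first annotated TSS in kb (horizontal axis), with circles for replicate 1, squares for replicate 2 and open triangles for peaks of replicate 1 alone. Bars below are protein-coding genes, with > for the strand of Cdkn1a, and the highest scores, 756 and 713, lie between Rab44 and Cpne5.

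Cdkn1b (ENSMUSG00000003031, chr6:134870419-134875531, plus strand) encodes p27, a second inhibitor of the same family. It had no peak within 100 kb in either list, in contrast to the 8 and 6 peaks of Cdkn1a. The nearest peak in each list belonged to the same shared region, chr6:134767166-134767766, which scored 392.5 in replicate 1 and 360.1 in replicate 2. This region lay 103 kb upstream, only just outside the limit, in intergenic sequence 12706 bp from the TSS of Crebl2. It held 1 AP1 match. A wider rule would thus have counted it, and another shared region lay at -117661 bp with scores of 91.8 and 87.5.

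E2f1 (ENSMUSG00000027490, chr2:154385143-154395628, minus strand), an activator of S-phase genes, had no peak within 100 kb. Its nearest shared region, chr2:154542107-154543263, was 147 kb upstream and scored 2443 in replicate 1 and 2150.1 in replicate 2. These scores were higher than those of any region within 100 kb of the 9 genes. The nearest TSS was that of Gm14215, at 3227 bp. The ERE without mismatch lay at -134 bp from the midpoint of the region, and the window around the midpoint of the replicate 2 peak alone held a best stretch with 2 mismatches.

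**Figure D4:**
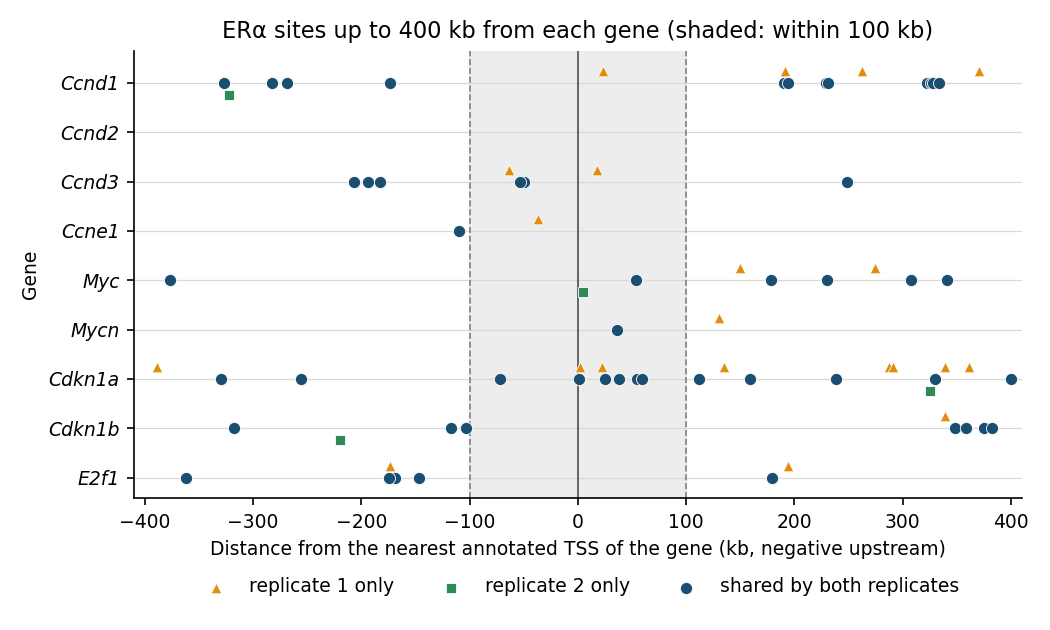
ERα sites up to 400 kb from each of the 9 genes, drawn as horizontal lines, by distance of the midpoint from the nearest annotated TSS of the gene in kb (horizontal axis, negative upstream); circles are shared regions, triangles peaks of replicate 1 alone and squares peaks of replicate 2 alone, set slightly above and below the line. The shaded band is the 100 kb limit, and the nearest shared regions of Cdkn1b and Ccne1 lie 103 and 110.2 kb upstream.

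Some sites lay close to the 100 kb limit on its outer side. Inside it, the farthest sites were the Cdkn1a region at -72322 bp and the Ccnd3 peak of replicate 1 at -63793 bp, so none lay just within the limit. Just outside were the regions of Cdkn1b and Ccne1 and a Cdkn1a region at 112057 bp with scores of 889 and 466. Between 100 and 200 kb from a TSS there were 15 shared regions over the 9 genes, counted by gene, and 26 more between 200 and 400 kb. These bands were not counted for all protein-coding genes, so whether these numbers are unusual cannot be read. Ccnd2 and Mycn had none in either band.

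The replicate 1 score was higher than the replicate 2 score in all 10 shared regions and in 80.2% of the 6250 shared regions of the genome. The median score of the 10 regions was 411 in replicate 1 (range 96.3 to 756) and 229.6 in replicate 2 (range 81.7 to 713). Over all shared regions the medians were 246 and 178. Of the peaks of these genes, 10 of 16 in replicate 1 (62.5%, 95% Clopper-Pearson interval 35.4% to 84.8%) and 10 of 11 in replicate 2 (90.9%, 58.7% to 99.8%) overlapped a peak of the other list. The shares of the whole lists were 64.9% and 90.6%. The 7 peaks without a partner had scores of 80.4 to 111, with a median of 96.2, and all of them lay below the median scores of the 10 shared regions. In the whole lists the median scores of peaks without a partner were 105 and 94.1. The intervals cover counting error only and treat the peaks as independent, although many lie at the same gene.

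**Figure D5:**
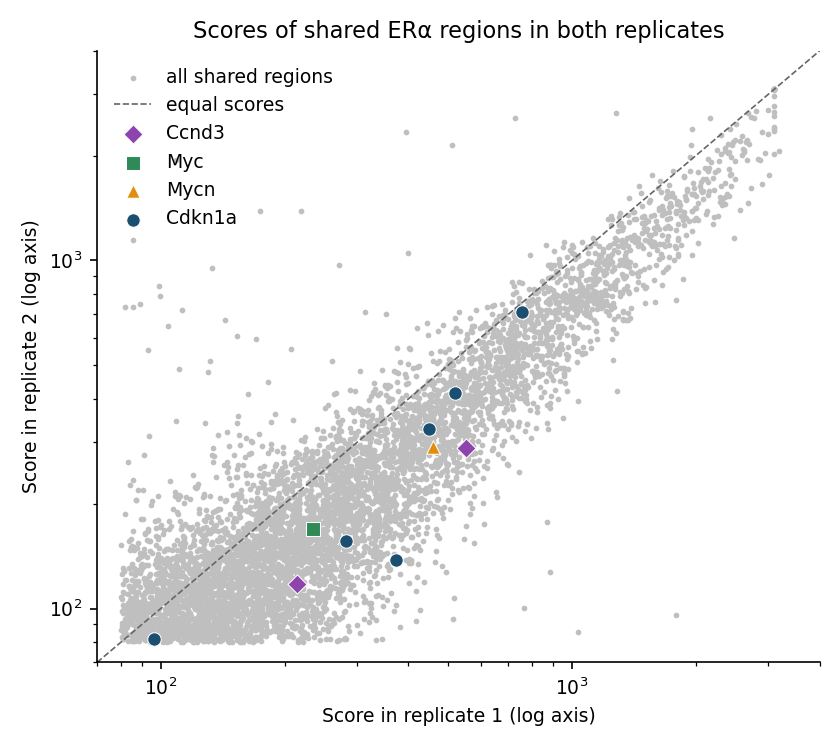
Score in replicate 1 (horizontal log axis) against score in replicate 2 (vertical log axis) for 6250 shared ERα regions (grey) and the 10 regions at Ccnd3, Myc, Mycn and Cdkn1a (coloured). The 10 regions lie below the dashed line of equal scores, with ratios of 1.06 to 2.71.

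Of the 10 shared regions, 3 held an ERE with at most 1 mismatch (30%, 95% Clopper-Pearson interval 6.67% to 65.2%), 2 at Cdkn1a and 1 at Ccnd3. The share over the 6243 shared regions with sequence in the reference was 31.1%. No region of these genes had an ERE without mismatch (0%, upper bound 30.8%), against 6.60% of all shared regions, and 4 had at most 2 mismatches (40%, 12.2% to 73.8%), against 67.3%. The AP1 consensus was present in 2 of the 10 regions (20%, 2.52% to 55.6%) and in 16.7% of all regions. The SP1 consensus was present in 3 (30%, 6.67% to 65.2%), at Ccnd3, Mycn and Cdkn1a, and in 9.47% of all regions. SF1, PAX2 and FOXA1 matches were found in 1 region each, at Myc, Cdkn1a and Mycn, against 9.35%, 9.16% and 14.03% of all regions. The CRE consensus was not found, and 0.529% of all shared regions held it. With 10 regions, all of these intervals are wide. They treat the regions as independent, although 6 of the 10 lie at Cdkn1a and 2 at Ccnd3. A match is a description of letters and does not show that a factor bound there.

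Other genes of the cell cycle were counted by the same rule. Of 52 such genes in 8 lists, 24 (46.2%) had at least 1 shared region and 6 were the nearest gene to one. The shares of all protein-coding genes were 38.1% and 11.8%. Among other cyclins the count was 2 of 9, among cyclin-dependent kinases 3 of 5, and among other CDK inhibitors 4 of 6. It was 7 of 9 among the other E2F and DP factors, 4 of 9 among MYC network partners, and 3 of 8 among phosphatases, ubiquitin ligase parts and replication licensing factors. None of the 3 pocket proteins, the retinoblastoma family, had a shared region, and 1 of the 3 p53 regulators of Cdkn1a did. Genes with no peak in either list in the lists of 5 genes or fewer were Cdk6 and Cdk7, Rb1, and Trp53, which encodes p53. The genes with most shared regions were E2f6, a repressor of the E2F family, with 7, Ccng2 with 4, the licensing factor Cdc6 with 4, the p53 inhibitor Mdm4 with 3, and the mitotic kinase Cdk1 with 3. Ccna2 and Cdkn2c also had 3 shared regions, with lower scores in their best region. A region within reach of more than 1 gene was counted at each.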

How the data were processed

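ERα ChIP-seq of mammary glands was available as 1 peak list per replicate. Alignment to mm9 by the authors used BWA, and their MACS peak calling compared each replicate on its own with the input. The MACS version is not given in the sources used here. The deposited score of each peak was read as its -log10 p-value multiplied by 10, the form of MACS output, since the lowest scores were 80.02 and 80.05, just past the p-value cutoff that the study names. For library preparation the labels and the study's methods name different kits. Library depth cannot be read from the lists.

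A peak was shared when it overlapped a peak of the other list by 1 bp or more, and the shared region was their common interval. TSSs came from GENCODE version 1 for mouse (Ensembl 65, NCBIM37, the assembly of mm9), in which all 9 genes were found. No peak ended past a chromosome end. Unplaced sequences held 9 and 7 peaks and were left out where sequence was needed. Motifs were searched in 400 bp windows on both strands. The members and lists were chosen with earlier results of these data known. All 9 genes were described, with the nearest peaks where no region was shared. Regions given in full were those nearest to a TSS, with the highest lower score, or with an ERE of at most 1 mismatch. Of the 52 other genes, those named were the 5 with most shared regions (ties by the highest lower score) and those without a peak in lists of 5 genes or fewer. With 1 group of 2 replicates no test between groups was possible. The other regions of Cdkn1a and the regions of other genes given by value were chosen after their values were seen. Alternatives were other windows, TSS sets, score cutoffs, overlap rules, motif settings and each replicate alone. The overlap, assignment and motif search were tested on simulated data. Python 3.11.15, numpy 2.4.6, scipy 1.17.1 and matplotlib 3.10.9 were used.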

Additional observations from a re-analysis of the deposited data

How the results depend on the processing

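Within 50 kb of a TSS there were 5 shared regions, at 3 genes, and within 20 kb there was 1, at 1 gene. With a score of at least 200 in both lists (p-value 1e-20) there were 5 regions, at 3 genes, and 0 of them were nearest to a listed gene. Myc had no shared region within 50 kb or at that score, and Mycn had none within 20 kb. With TSSs of protein-coding transcripts alone, 2 regions were nearest to a listed gene. With the peaks of 1 replicate alone in place of shared regions, the number of sites was 11 to 16, the number of genes 4 to 6, the number of sites nearest to a listed gene 2 in either list, and the share with an ERE 27.3% to 31.2%. The share of regions with an ERE was 0% within 20 kb, where 1 region was left, and 0% with no mismatch allowed. It was 40% with 2 mismatches, 20% in 200 bp windows and 30% in the whole region. Over all shared regions, 67.3% held an ERE with at most 2 mismatches and 31.1% with at most 1. The 95% interval of the share in the report is too wide to show that these settings leave it unchanged. Reciprocal overlap of 50%, midpoints within 100 bp of each other, the most 5′ TSS and a score of at least 100 (p-value 1e-10) left the number of regions at 9 or 10 and the number of genes at 4. The spread between animals is not known from 2 pooled replicates.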

Other observations

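The other cell cycle genes with most shared regions differed in where those regions lay. At E2f6, 4 of the 7 regions lay in introns of the neighbouring Greb1, an estrogen-responsive gene, and the highest of the lower scores was 1106, in chr12:16797037-16797719. For 2 intergenic regions E2f6 itself was the nearest gene, with midpoints 37128 and 39804 bp from its TSS and scores of 1146 and 659, and of 1161 and 887. At Ccng2, which encodes cyclin G2, the region chr5:93695613-93696579 had its midpoint at -187 bp from the TSS, with scores of 280.2 and 153. The 4 regions of Ccng2 came from 3 replicate 2 peaks, since 1 of these overlapped 2 peaks of replicate 1.

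An ERE without mismatch was found in 3 of the 21 regions of these 5 genes, 1 each at E2f6, Cdk1 and Mdm4, and in 6.60% of all shared regions. The 5 genes were picked for their number of regions, so no contrast with the 10 shared regions described above is drawn. At E2f6 it was chr12:16767019-16767641, in an intron of Greb1, with scores of 927 and 554. At Cdk1, chr10:68771874-68772387 had scores of 679 and 424 and lay 33347 bp downstream of the nearest Cdk1 TSS. Its nearest gene was Rhobtb1, at 29924 bp. At Mdm4, chr1:135017617-135018403 had scores of 998 and 949 at -96067 bp, nearest to Ppp1r15b. At Cdc6, 3 of the 4 regions lay in introns of Rara, the gene of the retinoic acid receptor α, with replicate 1 scores of 333 to 469.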
